A study of Mus musculus with 6 samples.

Results

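The 10 genes described here encode transcription factors that specify interneurons of the dorsal spinal cord, namely Pax2, Pax8, Ptf1a, Lhx1, Lhx5, Lbx1, Gbx1, Tfap2b, Barhl1 and Barhl2. They were taken by symbol from a table of 22869 gene symbols, with the transcript row of the highest summed count kept for each gene, and all 10 had a row. RNA was sequenced from mouse embryos of mixed strain at stage E14.5. The 3 mechanoreceptor libraries (replicates 2, 8 and 9) held Ret+ RA mechanoreceptors sorted by fluorescence from dorsal root ganglia of Ret-CreERT2; Rosa26-Tdtomato embryos, whose mothers had been gavaged with 1.5 and 2 mg of 4-hydroxytamoxifen. The 3 midline libraries (replicates 2, 3 and 5) held wild-type cells of the dorsal column midline, described as derived from the roof plate and cut from frozen, hematoxylin-stained spinal cord by laser capture microdissection. The Cre acts wherever Ret is transcribed when tamoxifen is present, and cutting from a section takes all cells in the cut area. Cell type, tissue, isolation method, genotype and tamoxifen cannot be told apart in this design. The labels do not give the number of embryos behind a library, so p-values reflect the spread among these libraries and part of that spread may be technical. Captured samples may share an embryo, in which case the p-values are too small.

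Neurons of the dorsal horn arise from progenitors of the dorsal neural tube and settle beside the dorsal columns. Ptf1a, a basic helix-loop-helix factor made for a short time as such cells leave the cell cycle, directs them to an inhibitory fate, and the paired box factors Pax2 and Pax8 and the LIM homeodomain factors Lhx1 and Lhx5 then maintain it. Lbx1 is a homeodomain factor of the more ventral dorsal classes, Gbx1 and Tfap2b mark inhibitory subsets, and Barhl1 and Barhl2 are homeodomain factors of the commissural neurons that arise next to the roof plate. Sensory neurons of the dorsal root ganglia come from the neural crest and are excitatory.

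Total counts per library lay between 12031898 and 13801474 in mechanoreceptors and between 5599811 and 8081153 in the midline. Levels are given as CPM, the count relative to the TMM-scaled library size. A floor of 3 counts corresponded to 0.346 to 0.383 CPM in mechanoreceptors and to 0.474 to 0.669 CPM in the midline. The summed level of 10 sensory neuron markers was 5542 to 7393 CPM in mechanoreceptors and 79.9 to 119 CPM in the midline. The midline libraries differed from each other in their makeup. Summed skeletal muscle markers stood highest in midline library 2 (14312 CPM, against 168 in library 3 and 1424 in library 5). Pan-neuronal markers stood highest in library 3 (1167, 4826 and 1490 CPM in libraries 2, 3 and 5), and 11 roof plate markers in library 5 (392, 1132 and 1776 CPM). By edgeR, called higher in the midline were all 10 tested of the 11 roof plate genes, 7 of 8 radial glia and 8 of 8 skeletal muscle genes. Called higher in mechanoreceptors were 8 of 10 sensory and 6 of 7 pan-neuronal genes. Of all genes tested 18.9% and 18.8% were called in these directions. Roof plate genes such as Wnt1, with 0 counts in the sorted cells, passed the count filter through the midline, so these numbers are a description. With limma-voom 0 of the 8 skeletal muscle genes were called, and with the stricter count filter 5. In such tissue libraries fewer cells of a type and less RNA per cell cannot be told apart.

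The transcription factor genes of inhibitory dorsal interneurons that could be tested were higher in the midline libraries than in the sorted sensory neurons. In the sorted libraries Pax2, Pax8, Lhx1 and Lhx5 had 0 to 5 counts each, and Tfap2b had up to 34. Pax2, Pax8, Lhx1, Lhx5 and Tfap2b, which passed the filter on low counts, were each higher in the midline at an adjusted p under 0.05 by the quasi-likelihood test of edgeR. Of all 15314 genes tested 18.9% were called in that direction and 37.8% in either. As these 5 genes passed the filter through their midline counts, their number by itself is no result. Gbx1, Barhl1, Barhl2, Lbx1 and Ptf1a had too few counts for the test, and Ptf1a had 0 counts in all 6 libraries.

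Pax2, a paired box factor needed for the inhibitory transmitter fate, stood at 16.0, 198 and 70.2 CPM in midline libraries 2, 3 and 5 and at 0.115, 0 and 0.383 CPM in mechanoreceptor libraries 2, 8 and 9. The groups did not overlap, and midline library 3 was well above the other midline libraries. The means were 94.9 ± 93.6 against 0.166 ± 0.197 CPM (SD, n = 3), with a log2 fold change (midline minus mechanoreceptor) of 9.05, SE 1.23 and edgeR adjusted p = 0.0016. The mechanoreceptor level rested on 4 counts in all, so the size of the fold was imprecise. It was 7.89 on the log2 scale without midline library 3 and 10.3 without mechanoreceptor library 9. Pax8, its close paralog, stood at 20.9, 86.6 and 26.8 CPM in midline libraries 2, 3 and 5 and at 0.231, 0.594 and 0.128 CPM in mechanoreceptor libraries 2, 8 and 9. The groups were again separate, and library 3 was again the highest. The log2 fold change was 7.04 (SE 0.81, edgeR adjusted p = 0.000919), and it was 6.11 without midline library 3 and 7.78 without mechanoreceptor library 8. An exon of Gm13415, annotated on the opposite strand, overlaps Pax8, and since strand was not stated its reads cannot be told apart from those of Pax8.

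Lhx1, a LIM homeodomain factor that maintains Pax2 in the dorsal horn, stood at 10.1, 101 and 20.05 CPM in midline libraries 2, 3 and 5 and at 0.115, 0 and 0.128 CPM in mechanoreceptor libraries 2, 8 and 9. It had 642 midline counts and 2 in the sorted cells, with no overlap between groups. The ratio of summed counts was 469 (exact 95% interval 129 to 3882, counting error only; fitted log2 fold change 8.79, SE 1.26, edgeR adjusted p = 0.00191), and 188 without midline library 3. Lhx5, its partner with overlapping function, had 9, 94 and 64 counts in midline libraries 2, 3 and 5 (1.44, 20.97 and 10.1 CPM) and 0 counts in all mechanoreceptor libraries. Its midline level was at least 81.3-fold higher, with 3 counts over the whole mechanoreceptor group as the floor (edgeR adjusted p = 0.00835). The bound was 48.2 without midline library 3 and 53.0 to 55.8 without any one mechanoreceptor library, where the floor is higher. Gm27199 overlaps an exon of Lhx5 on the opposite strand, with the same uncertainty as for Pax8.

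Tfap2b is a factor of the AP-2 family that acts downstream of Ptf1a in inhibitory neurons. Its CPM, not scaled for transcript length, was the highest of the 10 genes in each midline library. The values were 47.5, 325 and 103 CPM in libraries 2, 3 and 5. In mechanoreceptor libraries 2, 8 and 9 it stood at 3.92, 0.832 and 0 CPM, from 34, 7 and 0 counts. The sorted libraries thus disagreed with each other, and the lowest midline value still lay above the highest of them. The log2 fold change was 6.60 (SE 1.14, edgeR adjusted p = 0.00383), 8.45 without mechanoreceptor library 2 and 5.50 without midline library 3. The table held another transcript row of Tfap2b with 292, 1438 and 642 midline counts, close to the 296, 1455 and 655 counts of the row kept, and the rows may count the same reads. Gbx1, a homeodomain factor of a subset of inhibitory dorsal horn neurons, had 2, 34 and 35 counts in midline libraries 2, 3 and 5 and 0 counts in the sorted cells. Over summed counts its midline level was at least 34.6-fold higher, a bound of 22.6 to 53.0 with single libraries left out, the highest without midline library 2. Gbx1 was below the filter, but with no count filter it was called (edgeR adjusted p = 0.00984), where 12.7% of all genes were called higher in the midline.

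The BarH-like genes Barhl1 and Barhl2 were near the floor. Barhl1 had 6, 6 and 17 counts in midline libraries 2, 3 and 5 and 0, 3 and 0 counts in mechanoreceptor libraries 2, 8 and 9. The ratio of summed counts was 14.1 (exact 95% interval 4.38 to 72.5), and it was 9.21 without mechanoreceptor library 2 and 9.30 without midline library 5. Barhl2 had 13, 4 and 0 counts in midline libraries 2, 3 and 5 and none in the sorted cells, which made it at least 8.28-fold higher over summed counts, at least 3.07-fold without midline library 2 and at least 13.2-fold without midline library 5. Its groups overlapped, as midline library 5 had none. With no count filter neither passed the edgeR test (adjusted p = 0.0671 for Barhl1 and 0.0658 for Barhl2). Barhl1 had its highest value in midline library 5 and Barhl2 in midline library 2, but the counts did not settle the order. The CPM ratio of library 3 to library 5 for Barhl1 had an exact 95% interval of 0.161 to 1.33, and that of library 3 to library 2 for Barhl2 one of 0.102 to 1.39. Atoh1, the progenitor factor that precedes them, had 5, 9 and 24 midline counts in libraries 2, 3 and 5 and 0 in the sorted cells.

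Lbx1 and Ptf1a were not detected above the floor. Lbx1 had a single count, in midline library 3, and Ptf1a had none, and the floor of a midline library was 0.474 to 0.669 CPM. The deposited counts cannot tell a gene without transcripts from one whose reads were not counted, so these values set no limit on expression of either gene. No fold is given for either. The level of Pax2 in the same libraries was 16.0 to 198 CPM. Tested genes linked to Ptf1a were present in the midline, among them Prdm13, a zinc finger factor that acts with it (9, 8 and 22 counts in libraries 2, 3 and 5, at least 19-fold higher, edgeR adjusted p = 0.00745), and Kirrel2, a membrane protein gene that it activates (10, 13 and 9 counts, ratio of summed counts 46.8, exact 95% interval 7.81 to 1904, edgeR adjusted p = 0.0073). Both belong to the list of other inhibitory regulators, and both were singled out here after their values were seen. Both passed the filter through the midline, and what their levels mean for Ptf1a was not tested. The bound of Prdm13 was 12.4 to 23.04 with single libraries left out. For Kirrel2 the ratio was 30.97 to 53.5, and without mechanoreceptor library 2, which held its 1 count, the bound was 10.2.

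**Figure D1:**
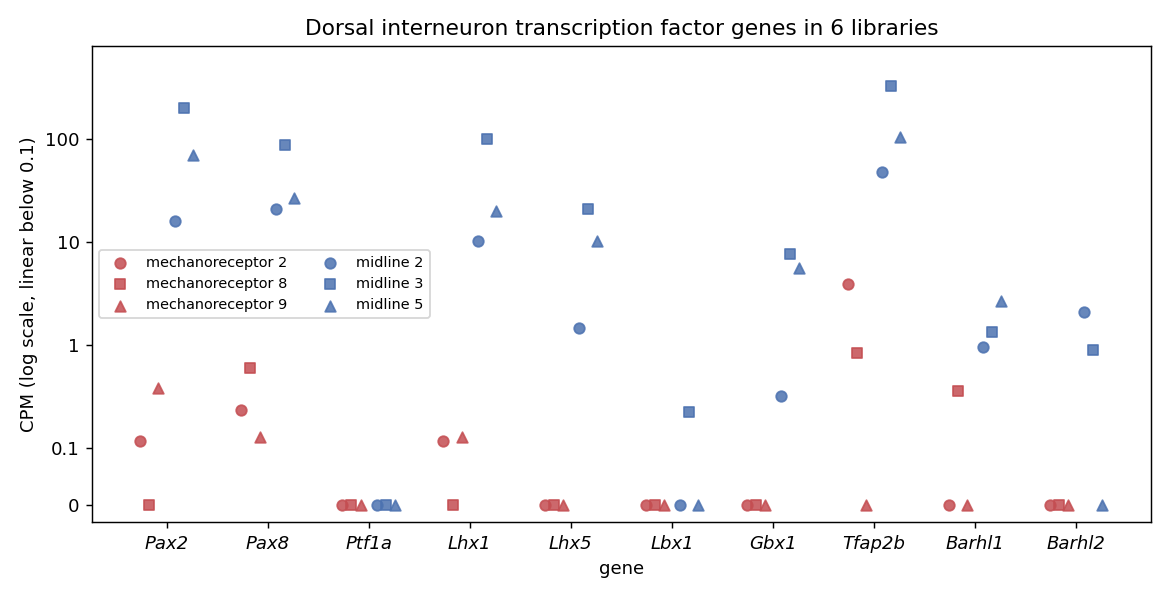
CPM of the 10 genes in each of the 6 libraries, on an axis that is logarithmic above 0.1 CPM and linear below it, with red symbols for mechanoreceptors and blue symbols for the midline. For Pax2, Pax8, Lhx1, Lhx5, Gbx1, Tfap2b and Barhl1 each blue symbol lies above the red ones, and midline library 3 (squares) is the highest for 6 of these 7. The Gbx1 value of midline library 2 lies below the floor of 3 counts.

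Groups did not overlap, with the midline higher, for 7 of the 10 genes, where 24.9% of all 22869 symbols had groups separated in that direction. For Gbx1 the separation rested on 2 counts in midline library 2, below the floor of 3 counts. For Barhl1 it rested on 6 counts in midline library 2 against 3 in mechanoreceptor library 8. For 8 of the 10 genes the authors' deposited table had a false discovery rate under 0.05 with a positive log2 fold change toward the midline, against 13.0% of all rows kept. Those were all but Ptf1a and Lbx1. The authors' comparison is of the same groups, and the factors were chosen with earlier results of these data known. The number of factors that passed it is therefore no result by itself. The authors' deposited table gave a log2 fold change of 7.91 for Pax2, 7.22 for Lhx1, 6.22 for Pax8 and 4.78 for Gbx1, the last with a false discovery rate of 8.65e-05. For Barhl1 and Barhl2 the authors' deposited table gave 2.64 and 2.91, with false discovery rates of 0.0162 and 0.0383.

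As Pax2, Pax8 and Lhx1 were higher in the same libraries, the bases before their transcription starts are shown, for the listed start nearest to that of the counted transcript (293 bases away for Pax2, 0 for Pax8 and 1 for Lhx1). The sequences are from RefSeq on build GRCm38.p6, of which 7 of the 10 genes had an entry. The windows hold the 250 bases upstream of the start, at chr19:44755502-44755751 (plus strand) for Pax2, chr2:24475600-24475849 (minus strand) for Pax8 and chr11:84525535-84525784 (minus strand) for Lhx1, written 5′ to 3′. The counts themselves were made on mm9. Capitals mark a match on either strand to GCCNNNGGC, bound by AP-2 factors such as Tfap2b, to TAATTA, bound by LIM and BarH-like homeodomains, or to TGGGAA, bound by the RBPJ partner of Ptf1a.
Pax2: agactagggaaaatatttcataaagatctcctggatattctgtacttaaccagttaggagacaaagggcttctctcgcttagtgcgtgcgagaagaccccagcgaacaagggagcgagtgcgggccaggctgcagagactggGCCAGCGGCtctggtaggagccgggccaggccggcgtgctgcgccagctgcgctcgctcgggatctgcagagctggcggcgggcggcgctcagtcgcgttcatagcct
Pax8: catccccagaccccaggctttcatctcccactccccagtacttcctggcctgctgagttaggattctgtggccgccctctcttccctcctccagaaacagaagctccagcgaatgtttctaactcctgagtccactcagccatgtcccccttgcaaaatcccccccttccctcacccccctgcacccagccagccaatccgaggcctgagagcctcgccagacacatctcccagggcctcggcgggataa
Lhx1: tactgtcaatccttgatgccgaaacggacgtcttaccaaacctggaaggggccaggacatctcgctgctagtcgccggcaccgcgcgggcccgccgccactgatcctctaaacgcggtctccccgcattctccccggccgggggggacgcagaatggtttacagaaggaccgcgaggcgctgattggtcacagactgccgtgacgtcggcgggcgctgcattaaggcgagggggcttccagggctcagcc
The Pax2 window held 1 match to the AP-2 letters, which 13.7% of all 32851 windows of this length held. The windows of Pax8 and Lhx1 held none of the 3 motifs. TAATTA was in 4.84% and TGGGAA in 21.6% of all windows. Among the other windows listed for these genes, that of Ptf1a held 1 TGGGAA. So did a Pax2 window whose start lies 9444 bases from that of the counted transcript. A Barhl1 window (3917 bases away) held 1 match to the AP-2 letters, and the rest, such as that of Tfap2b, held none. A match describes the letters only.

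Levels of different genes were compared per kilobase of transcript, with lengths from the GENCODE M21 annotation. In the midline the order by mean CPM per kilobase was Tfap2b (27.03 ± 24.99), Pax2 (21.8 ± 21.5), Pax8 (17.5 ± 14.2), Lhx1 (11.4 ± 12.9), Lhx5 (4.03 ± 3.64), Gbx1 (1.29 ± 1.08), Barhl1 (0.453 ± 0.247) and Barhl2 (0.429 ± 0.452; SD, n = 3). The differences between neighbours in this order were each smaller than the larger SD of the pair. Within libraries part of the order was steady. Lhx1 lay above Lhx5 and Lhx5 above Gbx1 in each midline library, while Pax8 lay above Pax2 in library 2 (8.15 against 3.68 CPM per kilobase) and below it in libraries 3 (33.8 against 45.5) and 5 (10.5 against 16.1). Tfap2b and Pax8 were nearly level in library 2 (8.10 and 8.15 CPM per kilobase), while Tfap2b lay above Pax8 in libraries 3 and 5. For scale, Gad2, which encodes a GABA synthesis enzyme, stood at 24.4 ± 22.2 and the roof plate ligand gene Wnt1 at 29.97 ± 28.02 CPM per kilobase.

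The levels of these genes differed between the midline libraries. The CPM of midline library 3 over that of library 2 was 12.4 for Pax2 (exact 95% interval 10.05 to 15.4, counting error only), 9.98 for Lhx1 (7.65 to 13.2), 6.84 for Tfap2b (6.03 to 7.77) and 4.15 for Pax8 (3.39 to 5.10). Over all 14929 tested genes with more than 3 counts in each midline library the median of that ratio was 1.003. TMM scaling itself brings that median near 1, so it is no separate benchmark. Against midline library 5 the ratio was 2.82 for Pax2, 3.23 for Pax8, 3.14 for Tfap2b and 5.03 for Lhx1. Gbx1 was close in libraries 3 and 5 (ratio 1.37, interval 0.831 to 2.27). Of the 1784 genes called higher in the midline with a mean of at least 20 CPM there, 19.1% were highest in library 3, and all 4 of the factors among them were (Pax2, Pax8, Lhx1 and Tfap2b). Of all 20209 symbols with more than 3 midline counts 36.1% were highest in library 3. Each library is a single sample, so these are differences between 3 samples with no test.

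**Figure D2:**
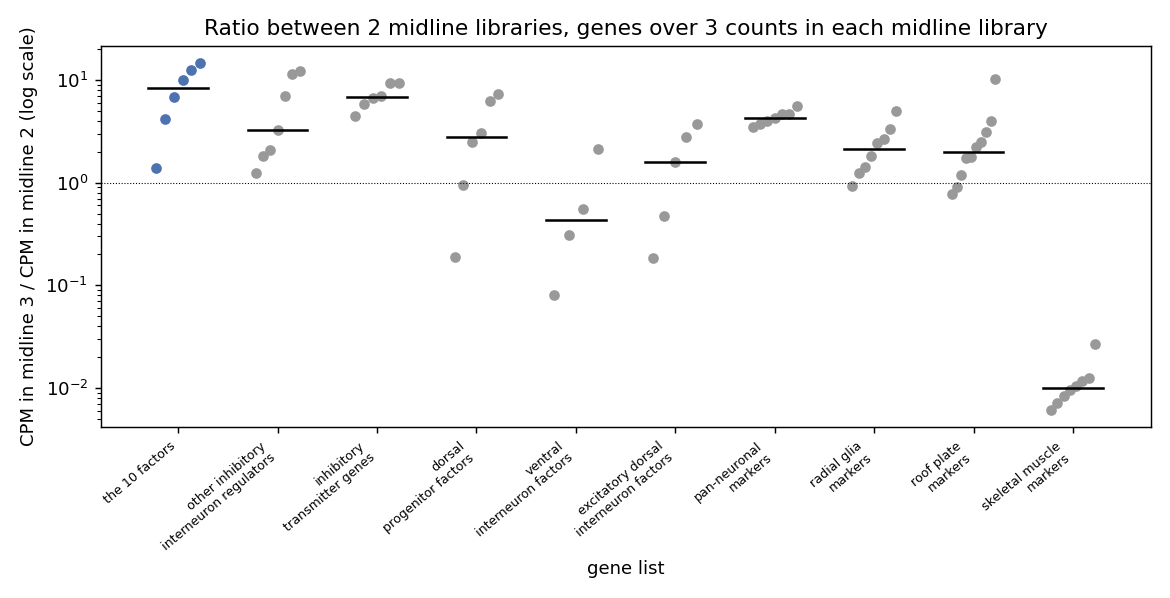
Ratio of CPM in midline library 3 to CPM in midline library 2 on a log axis, 1 point per gene with more than 3 counts in each midline library, with the median of each gene list as a black line and a dotted line at 1. The 6 plotted factors (blue) range from 1.39 for Barhl1 to 14.53 for Lhx5, the 7 pan-neuronal genes from 3.49 to 5.63, and the 8 skeletal muscle genes are at 0.0266 or lower.

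Pan-neuronal genes moved with the factors across the midline libraries, with summed levels 4.14 times as high in library 3 as in library 2. Expressed as a percentage of that sum, a measure chosen after the values were seen, Pax8 was nearly constant at 1.79, 1.79 and 1.80% in libraries 2, 3 and 5. Those values rested on 130, 388 and 170 Pax8 counts, so agreement this close is finer than counting error resolves. Pax2 was not constant, at 1.37, 4.11 and 4.72%, nor was Lhx5, at 0.124, 0.434 and 0.678%. Tfap2b stood at 4.07, 6.73 and 6.94%, Gbx1 at 0.0275, 0.157 and 0.371%, and Lhx1 at 0.866, 2.09 and 1.35%. Midline library 2 was thus low for Pax2, Lhx1, Lhx5, Gbx1 and Tfap2b beside its pan-neuronal sum as well. Set against the summed CPM of Gad1 and Gad2, the GABA synthesis genes, Tfap2b was the steadier gene, at 81.3, 80.7 and 75.9%, and Pax8 was at 35.7, 21.5 and 19.7%. The part of skeletal muscle RNA and of cell numbers in these differences was not tested.

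**Figure D3:**
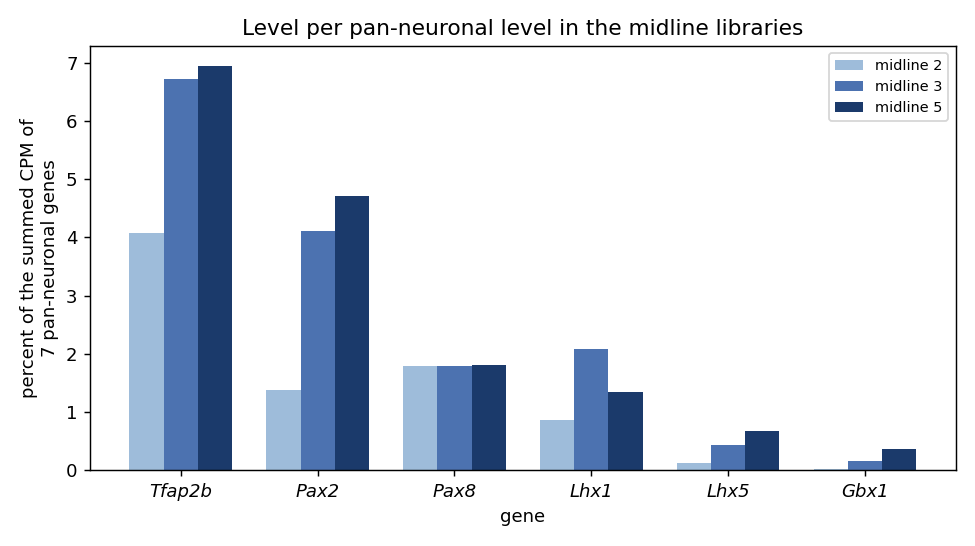
CPM of 6 factors in each midline library as a percentage of the summed CPM of 7 pan-neuronal genes, 1 bar per library with the axis starting at 0. Pax8 has 3 bars of nearly equal height (1.79, 1.79 and 1.80%), while Pax2 is at 1.37% in library 2 and at 4.11 and 4.72% in libraries 3 and 5.

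The mix of the factors differed between the captured samples. Of the summed counts of the pair Pax2 and Pax8, Pax2 took 43.5% in midline library 2 (Wilson 95% interval 37.2 to 49.9%), 69.6% in library 3 (67.0 to 72.1%) and 72.4% in library 5 (68.7 to 75.7%). The interval of library 2 lay apart from both others. Of the pair Lhx1 and Lhx5, Lhx1 took 87.5% in library 2 (77.9 to 93.3%), 82.8% in library 3 (79.4 to 85.7%) and 66.5% in library 5 (59.5 to 72.8%), where library 5 lay apart. Tfap2b made up a similar share of the counts of all 10 genes in each midline library, at 47.8, 43.8 and 43.3%. These intervals cover counting error in single samples only.

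Of 11 other regulators of inhibitory interneurons, 7 were tested. Of these 5 were called higher in the midline and 0 in mechanoreceptors, where 18.9% and 18.8% of all genes tested were called. Prdm13, Skor1 and Kirrel2 had 0 or 1 counts in the sorted cells and so passed the filter through the midline, which makes this count a description. The zinc finger gene Sall3 stood at 212 ± 155 against 0.855 ± 0.974 CPM (SD, n = 3; log2 fold change 7.90, SE 0.99, edgeR adjusted p = 0.00123) and the nuclear receptor gene Rorb at 110 ± 134 against 2.47 ± 1.30 CPM (5.46, SE 1.01, edgeR adjusted p = 0.00516). Skor1, a transcriptional corepressor that binds Lbx1, was higher as well, with 95, 220 and 65 midline counts in libraries 2, 3 and 5 against 1 in all sorted cells. Skor2 (log2 fold change -1.77, SE 0.81, edgeR adjusted p = 0.12) and Tfap2a (0.99, SE 0.43, edgeR adjusted p = 0.101) did not pass. Tfap2a, the paralog of Tfap2b, averaged 12.9 ± 3.53 CPM in the sorted cells and 25.9 ± 13.9 CPM in the midline (SD, n = 3). Of 8 inhibitory transmitter and peptide genes, 7 were tested and 6 were called higher in the midline, among them Gad2 (139.9 ± 127 against 0.397 ± 0.38 CPM) and the neuropeptide gene Npy. The peptide gene Gal was higher in mechanoreceptors (log2 fold change -3.52, SE 0.47, edgeR adjusted p = 0.0015).

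Excitatory dorsal interneuron factors were split. Of 10 genes 8 were tested, 2 were called higher in the midline and 4 in mechanoreceptors, with a median log2 fold change of -2.27 against 0.05 over all genes tested. Of all genes tested 18.9% and 18.8% were called in these directions. The 2 genes called higher in the midline, Lmx1b and Lhx2, passed the filter through the midline, so the number called is a description. Isl1 (437 ± 89.5 against 6.88 ± 4.51 CPM), Pou4f1 (361 ± 23.3 against 40.8 ± 28.3 CPM) and Prrxl1, which sensory neurons also express, were higher in mechanoreceptors, as was Tlx3. Lmx1b, a LIM homeodomain factor of excitatory dorsal horn neurons, had 10, 27 and 12 midline counts in libraries 2, 3 and 5 against 1 in the sorted cells, and Lhx2, a factor of the commissural class that also holds Barhl1 and Barhl2, had 15, 17 and 11 against 0. Phox2a and Foxd3 did not pass the test (edgeR adjusted p = 0.116 and 0.112). In the midline Pou4f1 was also highest in library 3, at 26.1, 73.4 and 22.9 CPM in libraries 2, 3 and 5.

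Of 9 dorsal progenitor factors 4 were tested and all 4 were called higher in the midline, among them Pax3, Olig3 and Pax7. Of all genes tested 18.9% were called in that direction. Olig3, Pax7 and Pax3 had 0, 2 and 16 counts in all sorted cells. They passed the filter through the midline, so the number called is a description. Pax7, which muscle precursors also express, was highest in library 2 (15.2, 2.90 and 2.05 CPM), as were the skeletal muscle markers, whose part in its level was not tested. Olig3, which marks progenitors next to the roof plate, had 14, 63 and 226 counts in midline libraries 2, 3 and 5 and 0 in the sorted cells (at least 148-fold higher, edgeR adjusted p = 0.00746), highest in library 5 like the roof plate markers. The bound was 59.7 without midline library 5 and 96.2 to 101 without any one mechanoreceptor library, where the floor is higher. Pax3 was also highest there (14.9, 14.3 and 48.6 CPM). Of 13 ventral interneuron and motor neuron factors 3 were tested, and Foxp2 (32.5 ± 12.8 against 4.57 ± 0.401 CPM, edgeR adjusted p = 0.00153) was called higher in the midline. Tal1 and Gata2 did not pass (edgeR adjusted p = 0.0743 and 0.08). En1, a homeodomain factor of ventral inhibitory neurons that also carry Pax2, had 8, 0 and 2 midline counts in libraries 2, 3 and 5. These were too few for the test, and those of libraries 3 and 5 lay below the floor of 3 counts. Which neurons carried Pax2 was not tested.

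Of 19 paralogs 8 were tested, 6 were called higher in the midline and 0 in mechanoreceptors. Of all genes tested 18.9% and 18.8% were called in these directions. Among the 6 were Pax3, Pax7 and Lhx2, which the progenitor and excitatory lists counted already. In all sorted cells Gbx2 and Lhx2 had 0 counts, Pax7 had 2, Pax6 had 6 and Pax3 had 16. They passed the filter through the midline, so the number called is a description. Pax6, a progenitor factor, stood at 10.1, 18.5 and 49.6 CPM in midline libraries 2, 3 and 5 and was highest in library 5. Gbx2, the paralog of Gbx1, had 15, 77 and 113 counts there and 0 in the sorted cells, more than Gbx1 in each midline library. It stood at 5.84 ± 4.09 CPM per kilobase against 1.29 ± 1.08 for Gbx1. Pax5, the third gene of the Pax2 and Pax8 subgroup, had 3, 8 and 8 midline counts, and Lbx2, the paralog of Lbx1, had 1, 0 and 0. Lhx6 did not pass (log2 fold change 1.17, SE 0.69, edgeR adjusted p = 0.213).

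**Figure D4:**
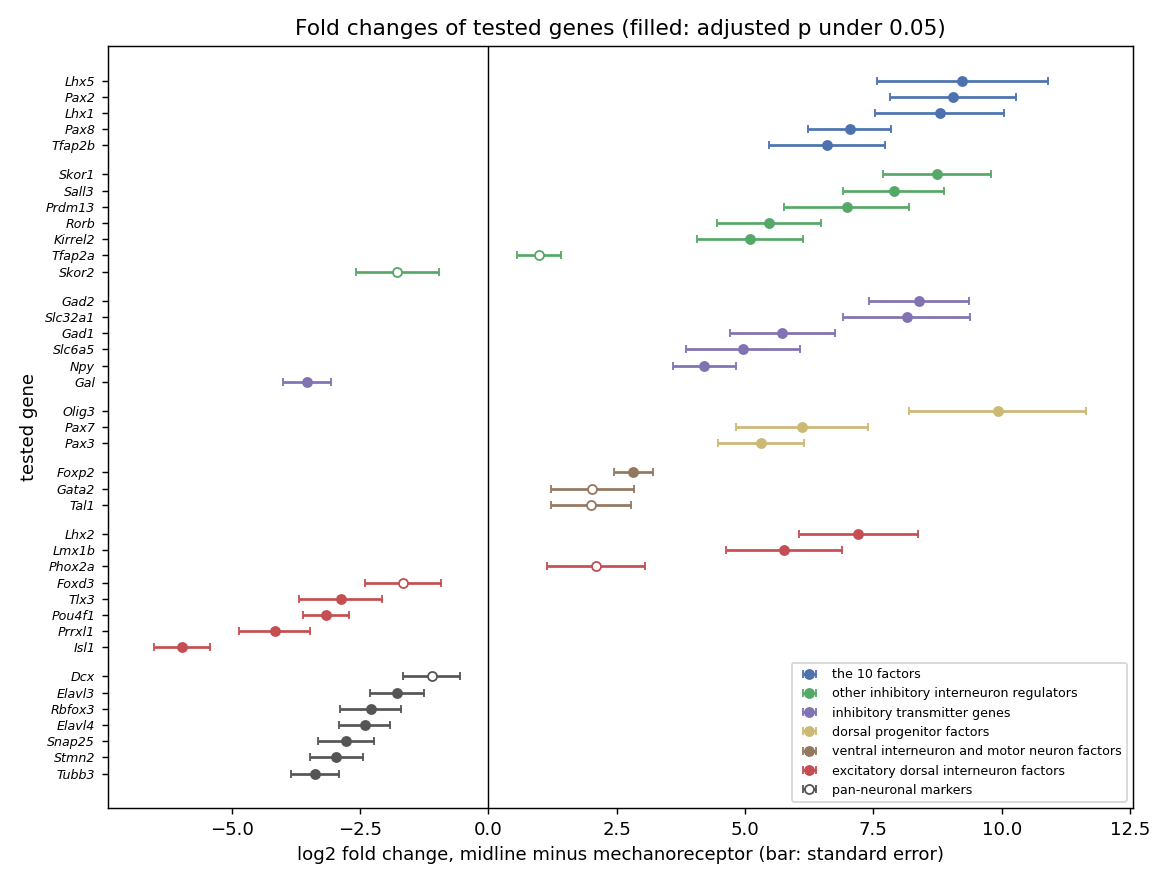
Log2 fold change (midline minus mechanoreceptor) of tested genes of 7 lists, with the standard error as a bar and filled symbols for an edgeR adjusted p under 0.05. The 5 tested factors lie between 6.60 (Tfap2b) and 9.24 (Lhx5), where the values of genes with 0 mechanoreceptor counts, such as Lhx5, are fitted values and no bounds, and 6 of the 7 pan-neuronal genes are called in the other direction.

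The genes most like Pax2 over the midline libraries were ranked among 1783 genes. These were called higher in the midline with a mean of at least 20 CPM there. Genes were ordered by their shares of the summed midline CPM in libraries 2, 3 and 5. The closest to those of Pax2 (5.6, 69.7 and 24.7%) came first. None of the pan-neuronal genes was called higher in the midline, so the ranking left them out. Their summed level was also highest in library 3 (1167, 4826 and 1490 CPM in libraries 2, 3 and 5). The ranks hold only within the ranked set. The 10 closest were Neurod6, Sez6, 6330527O06Rik, Grik2, Gad2, Runx1t1, Tfap2b, Gad1, Neurod2 and Rgs8. Neurod6 had shares of 5.3, 71.8 and 22.9%, with a summed absolute difference of 0.0432 from Pax2 on a scale where shares sum to 1. Tfap2b was seventh (10, 68.3 and 21.7%), and Gad2 and Gad1 ranked 5 and 8. Lhx1 ranked 31 and Pax8 33. The roof plate gene Wnt1, with shares of 11.1, 19.9 and 69.0%, ranked 1325, and the muscle gene Myh3 1755. This likeness rests on 3 libraries and is a description.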

How the data were processed

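RNA counts from 3 mechanoreceptor and 3 midline libraries were used. The authors deposited raw whole-number counts for each RefSeq transcript, and the submitters' processing notes name mm9 and edgeR. Aligner, counter and strand setting are not given in the sources used here. That same deposited table holds the authors' own log2 fold changes with p-values adjusted as false discovery rates, quoted only where named. Reads in exons shared by several transcripts can stand in several rows, so the row with the highest summed count was kept for each of 22869 symbols (28644 rows).

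The main test was that of edgeR 4.0.16 under R 4.3.3 (glmQLFit and glmQLFTest, TMM scaling, filterByExpr with minimum count 10 and minimum total 15, 15314 genes, 4 residual degrees of freedom). Benjamini-Hochberg adjustment ran over the whole tested table, and called means an adjusted p under 0.05. SEs were derived from the log2 fold change and its F statistic (change over root F). Where a group had 0 counts, folds are lower bounds computed with 3 counts in that group, and 1 to 3 counts give a ratio of summed counts with its exact 95% interval. Only counting error enters the intervals and floors. Before use the test was run on simulated counts with known changes and the same spread in both groups. That check does not cover midline libraries of differing makeup. Alternatives were upper-quartile and RLE scaling, DESeq2 1.42.0, limma-voom (limma 3.58.1), other count filters, summed transcript rows and each library left out. For Prdm13, Kirrel2 and Olig3 the latter was added after seeing the data.

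The factors and the 11 other gene lists were chosen with earlier results of these data known. Named beside the factors were, from each list of interneuron, progenitor, paralog and transmitter genes and ranked by mean CPM, the top 3 calls of the commoner direction, the top 2 of the rarer one and the top 2 without a call, except that 2 of these genes are not reported here. Other genes were named after their values were seen: Prdm13, Kirrel2, Atoh1, Tlx3, Pax7, Pax5, Lbx2, En1, Gad1, Wnt1 and Myh3. Of 8 pan-neuronal genes 7 were in the table.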

Additional observations from a re-analysis of the deposited data

How the results depend on the processing

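Pax2, Pax8, Lhx1 and Tfap2b kept their direction and their call in all 13 alternatives, and Lhx5 in the 12 in which it was tested, since the stricter filter (50 counts in 3 libraries) removed it. The log2 fold changes ranged from 7.89 to 10.3 for Pax2, 6.11 to 7.78 for Pax8, 7.25 to 9.24 for Lhx1, 6.71 to 9.78 for Lhx5 and 5.50 to 8.45 for Tfap2b. The highest adjusted p of Pax2 was 0.0476, with limma-voom. Called factors numbered 4 to 6 in all alternatives, 5 to 6 with single libraries left out, and 0 toward mechanoreceptors in each. Gbx1, where tested, was called (adjusted p 0.00312 to 0.0483). Of the 3 alternatives that tested Barhl1 it was called only with summed transcript rows (adjusted p = 0.0456), where reads of shared exons count more than once and its level in midline library 5 was 3.82 CPM.

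Over all genes, calls toward the midline ranged from 1862 to 2990 and toward mechanoreceptors from 1893 to 3206 with single libraries left out, against 2902 and 2886. Upper-quartile scaling moved the median log2 fold change of all genes from 0.05 to 0.26 and the share of calls toward the midline from 50.1% to 63.1%. With the stricter filter the counts toward the midline were 3 for other inhibitory regulators, 0 for excitatory factors, 2 for progenitor factors, 2 for paralogs and 5 for skeletal muscle genes, as fewer genes were tested. For ventral factors the count was 3 with DESeq2, 2 with limma-voom and 1 to 2 with single libraries left out. With limma-voom 0 skeletal muscle genes were called, and the cause was not tested. Other inhibitory regulators called toward mechanoreceptors numbered 0 to 1 with single libraries left out. Low counts limit the precision for Barhl1 and Barhl2. No paired analysis was possible because both groups share only the replicate number 2.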
